A study of Rattus norvegicus with 91 samples.

Results

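Rat liver taken 18 h after methylprednisolone was compared with time 0 in the shorter of a pair of time courses, on 3 arrays at 18 h and 4 control arrays. These 7 arrays were chosen by their titles from the 47 of that course, and the whole series holds 91. The liver came from Wistar rats, the RNA was total RNA, and each array gives 1 signal per probe set, a group of short probes that together read a transcript. The labels of both groups name a dose of 50 mg/kg of methylprednisolone, and those of the controls give time 0. The labels give no route, schedule, vehicle or clock hour, so the drug and the time of day cannot be told apart in any difference from time 0. They also do not say whether the arrays of a group come from different rats. Every standard error and p-value below therefore measures the spread between arrays, which may be technical, and the small number of arrays limits the precision. The 18 h arrays were also set against the 3 arrays at 8 h of the same course. That comparison shares its 18 h arrays with the one against time 0, so the pair is not independent. A longer course, measured on another array design with 4 arrays at 18 h and 4 controls of its own, was read for the same genes.

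Methylprednisolone is a synthetic glucocorticoid. It enters the cell, binds the glucocorticoid receptor and carries it to DNA, where the receptor raises or lowers transcription. In liver, glucocorticoids are known for inducing enzymes that break down amino acids and make glucose, and, together with interleukin-6, the plasma proteins of the acute-phase response. They can also reset the clocks of peripheral tissues. Signals were analysed as log2(signal + 32), so a fold change understates the change of dim genes. A gene is represented by its brightest probe set, and a change counts as past the threshold where limma's moderated test, adjusted by the Benjamini-Hochberg method over all probe sets tested, gave a p under 0.05.

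The 7 arrays had a shared scale, with trimmed means between 800.8 and 801.3. RNA quality, read as the log2 ratio of the 3′ to the 5′ control probe sets of GAPDH, ran from 0.03 to 0.20 at 18 h and from -0.05 to 0.26 in the controls, so the groups overlapped. The same ratio for actin varied more, with overlap, at -0.08, 0.72 and 0.49 at 18 h and 0.12, -0.09, 0.63 and 0.30 in the controls. The highest was on 18 h replicate 2. The summed signal of 14 hepatocyte markers ran from 136008 to 215313 at 18 h and from 96251 to 245325 in the controls.

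Few probe sets passed the threshold at 18 h against time 0. With so few arrays, differences of modest size can be missed. Of 6118 probe sets tested, 23 passed the threshold (0.376%), 15 of them higher (0.245%) and 8 lower (0.131%). The limma fit used the spread of all 47 arrays. Fitted on the 7 arrays alone, 8 probe sets passed, of which 4 were among the 23, and 2 of these 4 belonged to A2m. The count without 1 array ranged from 11, without 18 h replicate 2, to 36, without control replicate 1, and it was 14 without control replicate 4. At an unadjusted p under 0.05, 591 probe sets (9.66%) stood apart, 196 higher (3.2%) and 395 lower (6.46%). Among the 3579 genes read by their brightest probe set, 8 passed (0.224%), 3 higher (0.0838%) and 5 lower (0.14%). The higher genes were A2m, Hspe1 and Cyc1, and the lower ones Nr1d2, Ghr, Stmn4, Ces1e and Serpinh1. At an unadjusted p under 0.05, 352 genes (9.84%) stood apart. None of the 8 passed when only the 7 arrays were fitted, where A2m came nearest with an adjusted p of 0.0572.

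**Figure D1:**
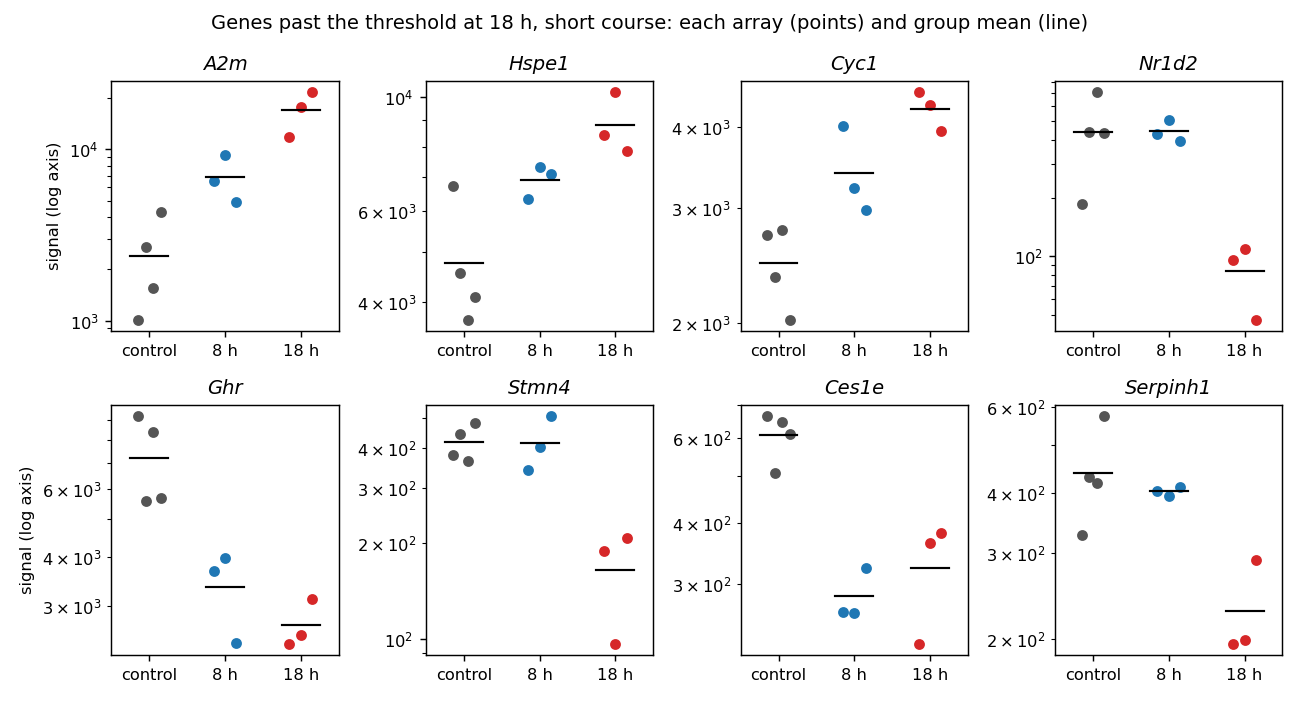
Signal of the 8 genes past the threshold at 18 h against control, 1 point per array on a log axis, for the 4 controls, the 3 arrays at 8 h and the 3 arrays at 18 h, with a line at each group's mean. In each panel the 18 h arrays and the controls do not overlap; A2m ran from 11803 to 21488 at 18 h against 1010.2 to 4291 in the controls.

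A2m, alpha-2-macroglobulin, is a broad protease inhibitor of plasma and the classical acute-phase protein of the rat, where glucocorticoid and interleukin-6 act together on its gene. Its brightest probe set read 11803, 17708 and 21488 at 18 h. The controls read 1010.2, 2699, 1540.1 and 4291. All 3 arrays at 18 h lay above every control, and the difference was 2.98 ± 0.45 on the log2 scale, a 7.88-fold higher level (limma adjusted p = 0.000352). Without 1 array the A2m difference lay between 2.64 and 3.33 and passed in all 7 such fits.

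The array holds 6 probe sets for A2m, all bright enough to be tested, and 5 of them passed the threshold. M22670cds_at read 6626, 4895 and 5949 at 18 h, and 93.9, 485.2, 250.1 and 762 in the controls, a difference of 4.06 ± 0.56 (limma adjusted p = 0.000134). The other 3 dimmer probe sets that passed gave 3.40, 2.44 and 2.33. The sixth, M23566exon_s_at, went the other way by the fit, at -0.47 ± 0.69 (limma adjusted p = 0.926). It read 614.1, 7468 and 19563 at 18 h against 3285, 8758, 4093 and 13375 in the controls, so that the 3 arrays at 18 h spread on both sides of the controls. At 8 h it read 392.8, 490.6 and 398.5, below every control. What this probe set detects was not tested.

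**Figure D2:**
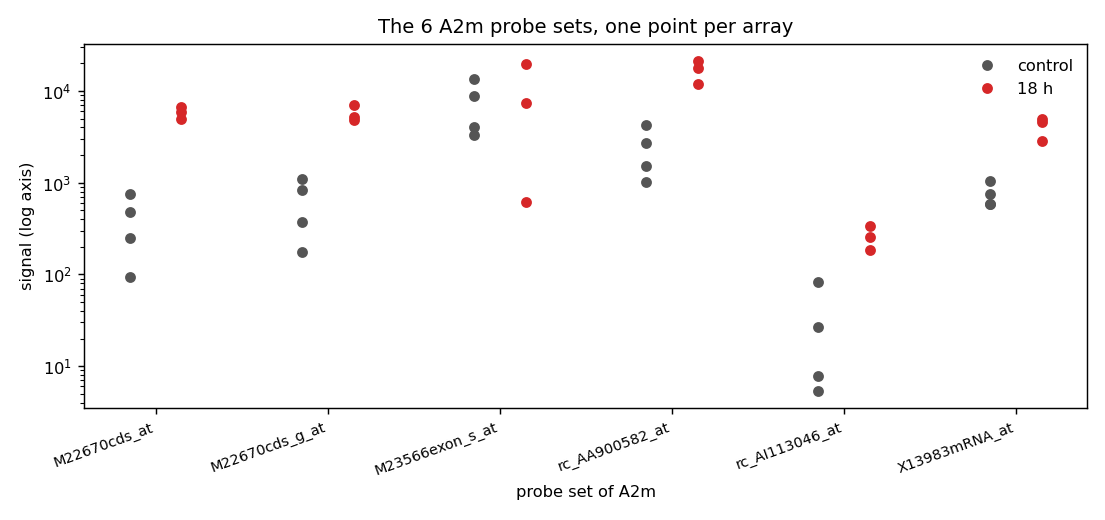
Signal of the 6 A2m probe sets, 1 point per array on a log axis, for the 4 controls and the 3 arrays at 18 h. Groups stand apart in 5 probe sets; in M23566exon_s_at the 18 h arrays run from 614.1 to 19563 and overlap the controls.

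Across the short course the brightest A2m probe set had its highest group mean at 18 h, 17000 ± 4881 (SD, n = 3). The controls averaged 2385 ± 1453 (SD, n = 4). It stood at 10906 ± 1158 at 4 h (n = 3), 6934 ± 2217 at 8 h (n = 3), 11638 ± 1924 at 12 h (n = 2) and 11488 ± 4277 at 30 h (n = 2). At 72 h it was 3296 ± 759 (n = 2), within the range of the controls. The 18 h mean was higher than the 8 h mean by 1.30 on the log2 scale, which did not pass (limma adjusted p = 0.0603). The probe sets disagreed on this step. M22670cds_at read 6729, 9669 and 9486 at 8 h, above all 3 arrays at 18 h, a difference of -0.56 (limma adjusted p = 0.521), and 3 more probe sets were lower at 18 h than at 8 h without passing. M23566exon_s_at was higher at 18 h than at 8 h by 3.32 ± 0.74 and was the only 1 of the 6 that passed (limma adjusted p = 0.00347). The sign of the step from 8 h to 18 h thus differed among the probe sets, and no probe set passed as lower.

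Of the other acute-phase genes none passed. The list held 24 measured genes with 1 higher, A2m itself, and 0 lower. Its median was 0.13, beside -0.09 over all genes. Lcn2, lipocalin-2, which binds bacterial siderophores and was read here among the neutrophil markers, had 18 h signals of 14031, 19945 and 24150. The controls split, at 1069 and 1679 in replicates 1 and 4 and 13794 and 25565 in replicates 2 and 3, so the groups overlapped (1.90 ± 0.57, limma adjusted p = 0.154). The summed signal of 5 neutrophil markers, most of it Lcn2, ran from 14378 to 24589 at 18 h and from 1239 to 25790 in the controls; the part of neutrophils in these values was not tested.

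The genes of the mitochondrial respiratory chain mostly had positive differences, with 1 past the threshold. Cyc1, the haem-bearing cytochrome c1 of complex III, read 4514, 4319 and 3936 at 18 h. The controls read 2723, 2353, 2772 and 2019.5. No array overlapped, and Cyc1 was 1.73-fold higher (0.79 ± 0.14, limma adjusted p = 0.00233). The oxidative phosphorylation list held 51 measured genes, of which 1 was higher, 0 were lower and 45 had a positive difference. At an unadjusted p under 0.05, 15 of the 51 were higher and 0 lower, where 2.82% of all genes were higher and 7.01% lower. The list's median was 0.28, beside -0.09 for all genes, and it was 0.39 and 0.23 with median centring and quantile normalization. The median over all probe sets was then 0.02 and -0.004.

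Further members of the chain came close to the threshold without passing it. Ndufab1, the mitochondrial acyl carrier protein that sits in complex I, read 4384, 4306 and 4408 at 18 h against 3037, 3082.5, 2572 and 2411 (0.66 ± 0.17, limma adjusted p = 0.0812). Ndufb9, an accessory subunit of complex I, read 7009, 7311 and 6615 against 5043, 4774.5, 3999 and 4252 (0.63, limma adjusted p = 0.0749). Uqcr11 of complex III and Cox8a of complex IV had differences of 0.57 and 0.51. In each of these 4 genes all 18 h arrays lay above all controls, which was a condition for naming a gene that did not pass. Gfm1, an elongation factor of mitochondrial protein synthesis, read 1176, 1219 and 1222 against 902.3, 585, 694.7 and 731.8, a difference of 0.72 (limma adjusted p = 0.0877).

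Hspe1 encodes the small chaperonin that works with Hspd1 to fold proteins in the mitochondrial matrix. It read 8435, 10202 and 7859 at 18 h and 6718, 4559.6, 3691 and 4089 in the controls, 1.89-fold higher (0.92 ± 0.20, limma adjusted p = 0.0271). A second probe set differed by 0.69 and fell just short (limma adjusted p = 0.0504). The groups did not overlap, but the call was lost without 18 h replicates 1 or 2 or control replicates 2, 3 or 4 (limma adjusted p between 0.0547 and 0.245) and with quantile normalization (limma adjusted p = 0.139). It was the single gene past the threshold among 27 heat-shock and folding genes, whose median was -0.04. The constitutive proteasome list had 0 of 22 genes past the threshold and a median of 0.19. Its largest difference was in Psmb3, a subunit of the core particle, with 3628, 3964.5 and 2768 at 18 h against 2309, 2644, 1736 and 2317 (0.61 ± 0.15, limma adjusted p = 0.0689). Ribosomal protein genes also had 0 of 41 past the threshold, with a median of 0.14.

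Further genes with higher 18 h signals did not pass, and were named because their p was low and their groups did not overlap. Cidea, a lipid-droplet protein, read 613.1, 544.6 and 401.6 against 143.8, 255, 202.1 and 230.6 (1.21 ± 0.31, limma adjusted p = 0.0738). Nme1, a nucleoside diphosphate kinase, differed by 0.79 (limma adjusted p = 0.075). Abcc8, the sulfonylurea receptor, was dim, at 264.7, 240.4 and 249.5 against 209.6, 89.6, 93.7 and 106.2 (0.91, limma adjusted p = 0.0864).

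The largest fall among the 8 genes was in a clock gene. Nr1d2 and Nr1d1 encode REV-ERB-beta and REV-ERB-alpha, nuclear receptors that repress Bmal1 and so close a loop of the circadian clock. Their transcription is driven by CLOCK and BMAL1, which bind E-boxes. Nr1d2 read 96.2, 109.5 and 47 at 18 h. The controls read 187.5, 438.2, 703.2 and 435.9. Each 18 h array was below each control, and Nr1d2 was 3.85-fold lower (-1.94 ± 0.35, limma adjusted p = 0.00233). The difference passed in every leave-one-array-out fit.

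The 250 bases before the start of Nr1d2 and of Nr1d1 are shown because both genes were at their lowest here at the same hour. Both come from the RefSeq promoter table, build GRCr8, and are written 5′ to 3′ on the gene's strand, with an E-box (CACGTG) in capitals. Nr1d2 lies at chr15:9954784-9955033 on the plus strand. Nr1d1 has 2 starts in the table, and the one shown, the only one with a match, is at chr10:84229455-84229704 on the minus strand.
Nr1d2: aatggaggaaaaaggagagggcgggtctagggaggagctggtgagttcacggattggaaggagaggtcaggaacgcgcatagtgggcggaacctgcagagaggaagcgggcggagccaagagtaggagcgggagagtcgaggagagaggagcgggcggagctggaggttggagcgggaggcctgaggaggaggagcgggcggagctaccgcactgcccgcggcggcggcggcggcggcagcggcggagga
Nr1d1: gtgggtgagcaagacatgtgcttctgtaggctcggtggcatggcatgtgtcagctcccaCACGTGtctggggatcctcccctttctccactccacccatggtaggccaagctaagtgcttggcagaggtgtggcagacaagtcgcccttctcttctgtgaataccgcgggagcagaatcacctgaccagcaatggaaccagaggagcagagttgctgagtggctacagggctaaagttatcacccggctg
The Nr1d1 window holds 1 E-box, beginning 191 bases before the start. The Nr1d2 window holds none of the 3 motifs searched on both strands, which were the E-box CACGTG, the D-box TTATGTAA and the palindromic glucocorticoid response element. Of 33469 RefSeq promoter windows of this length, 5.59% hold the E-box, 0.828% the D-box and 0.0359% the glucocorticoid response element. The search took the 12 named members of the clock and glucocorticoid-induced lists that passed in any comparison here, of which 9 are in the table. The E-box at this start of Nr1d1 was the only match among them, and the window of its other start holds none of the 3 motifs.

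Nr1d1 moved in the same direction without passing. Its brightest probe set read 274.8, 327.7 and 226.1 at 18 h against 492, 563.3, 734 and 594.1 (-1.03 ± 0.36, limma adjusted p = 0.268). The other probe set, M25804_at, read 55.8, 40.8 and 49.4 against 258.2, 90, 676.4 and 381.5 (-1.99 ± 0.54, limma adjusted p = 0.0877). Neither probe set had an overlap between the groups. Dbp, a clock-output activator that binds D-boxes, read 22.9, 25.2 and 44.5, and its controls were wide apart at 39.7, 127.1, 1998 and 398.3 (-2.35 ± 0.93, limma adjusted p = 0.342). Of 10 measured clock genes 0 were higher and 1 was lower, and the median was -0.25. The difference in clock hour between the arrays is not known.

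The short course showed when these clock genes were low. Nr1d2 averaged 443 ± 55.5 at 8 h (SD, n = 3), 124.4 ± 48.3 at 12 h (n = 2) and 84.2 ± 32.9 at 18 h (n = 3), the lowest group mean of the 17. At 30 h it was 865 ± 36.5 (n = 2). Dbp averaged 39.3 at 12 h and 30.9 at 18 h, then 2712 at 30 h. Nr1d1 had 282 ± 9.02 at 12 h, 276.2 ± 50.8 at 18 h and 975.8 ± 471 at 30 h. All 3 genes were thus lowest at 18 h.

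**Figure D3:**
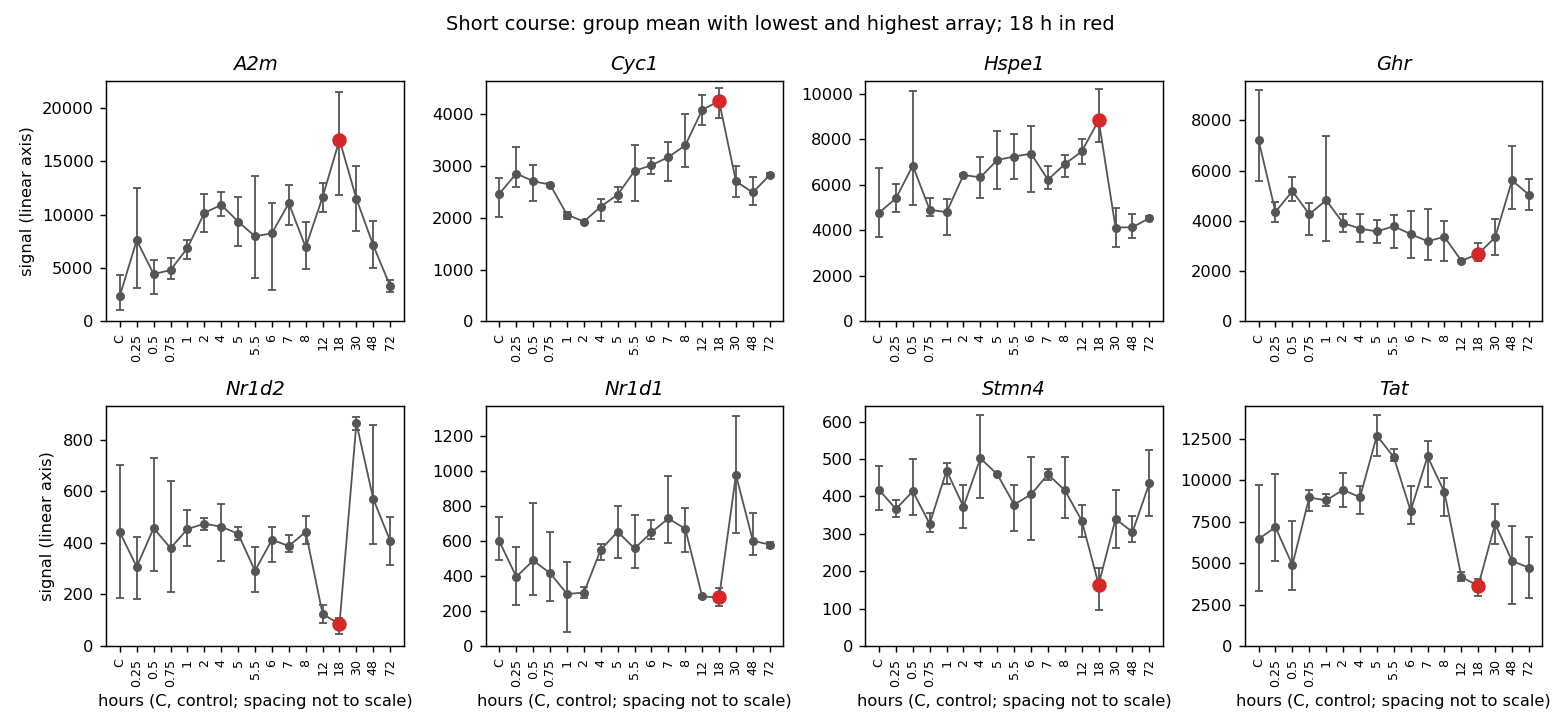
Signal on a linear axis of 8 genes over the 17 groups of the short course, as the group mean with bars from the lowest to the highest array; hours are evenly spaced and 18 h is in red. A2m, Cyc1 and Hspe1 have their highest mean at 18 h, and Nr1d2, Nr1d1, Stmn4 and Tat their lowest.

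Ghr, the growth hormone receptor, through which pituitary growth hormone drives hepatic Igf1, was 2.63-fold lower. It read 2398, 2515 and 3113.5 at 18 h and 9220.1, 5579, 8378 and 5670.4 in the controls (-1.39 ± 0.25, limma adjusted p = 0.00283). The arrays did not overlap. Its 2 dimmer probe sets differed by -0.94 (limma adjusted p = 0.196) and -0.51 (limma adjusted p = 0.71) and did not pass, though their groups did not overlap either. The mean of Ghr was 3360 ± 837 at 8 h (SD, n = 3), and its lowest mean was 2410 ± 45 at 12 h (n = 2). By 48 h it was 5606 ± 1278 (n = 3). Of 26 measured genes of growth hormone, IGF and insulin signalling, Ghr was the 1 lower and 0 were higher, with a median of -0.20.

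The other 3 genes past the threshold downward have unlike roles. Stmn4, a microtubule-destabilising protein of the stathmin family best known from neurons, read 188.9, 96.4 and 207.5 against 382.2, 442.6, 364.2 and 482.3 (-1.24 ± 0.20, limma adjusted p = 0.000633). Ces1e, a liver carboxylesterase, read 225.8, 363.5 and 381.8 against 664.8, 506.3, 647.2 and 610 (-0.87 ± 0.21, limma adjusted p = 0.0472). Serpinh1, the collagen chaperone HSP47, read 195.4, 198.6 and 290.6 against 326.6, 431.5, 418.5 and 574.7 (-0.85 ± 0.18, limma adjusted p = 0.019). In all 3 genes every 18 h array lay below every control. Ces1e and Serpinh1 lost their call when each array was centred on its median, with adjusted p of 0.127 and 0.0615, or quantile normalized, with 0.175 and 0.0666. Both also lost it without 18 h replicate 1, without 18 h replicate 2 or without control replicate 4, and Ces1e without control replicates 1 or 3; their adjusted p then lay between 0.0736 and 0.284. Stmn4 was lower at 18 h than in any other group of the course, the next lowest mean being 305 at 48 h.

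Genes just outside the threshold on the lower side included Ces1c, another carboxylesterase, at 4456, 3962 and 6024 against 7362, 9149.8, 9694 and 11085 (-0.96 ± 0.23, limma adjusted p = 0.0504). Myo1e, an unconventional myosin, differed by -0.89 and the uncharacterised LOC102546572 by -0.66, with the same adjusted p. Cask, a membrane scaffold kinase, differed by -0.71 (limma adjusted p = 0.0512). Lgals1, galectin-1, read 125.3, 177.8 and 71 against 212.1, 432.9, 377.2 and 313.6 (-1.24 ± 0.32, limma adjusted p = 0.0738).

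Cell-cycle genes mostly had negative differences, with none past the threshold. Ccnd1, the G1 cyclin, read 305.5, 348 and 369.1 at 18 h. The controls read 961.2, 1058, 970.5 and 720.3. Ccnd1 did not pass (-1.35 ± 0.34, limma adjusted p = 0.0648), and was named in part because its groups were apart. Of its 3 other probe sets, D14014_g_at and X75207_s_at differed by -1.51 and -1.16, and rc_AA957218_at by -0.08. Mcm5, part of the helicase that opens replication origins, read 67.6, 49.7 and 69.4 against 156.8, 136.8, 144.4 and 138.3 (-0.91 ± 0.24, limma adjusted p = 0.0812). Of 23 measured cell-cycle genes 0 passed in either direction, 22 had a negative difference, and 9 were lower at an unadjusted p under 0.05 with 0 higher. Among all genes 7.01% were lower and 2.82% higher at that p. The list's median was -0.36, where the median over all probe sets was -0.08. It was -0.25 and -0.26 under median centring and quantile normalization, where the median over all probe sets was 0.02 and -0.004.

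Tat, tyrosine aminotransferase, is the textbook glucocorticoid-induced enzyme of rat liver. At 18 h it was not above time 0. It read 3825.5, 4066 and 2992 at 18 h and 3341, 9713, 8588 and 4209 in the controls (-0.70 ± 0.32, limma adjusted p = 0.482). Of the 18 h arrays, replicates 1 and 2 lay between control replicates 1 and 4 and replicate 3 lay below every control, while control replicates 2 and 3 stood higher than all of them. Nr3c1, the glucocorticoid receptor gene, read 270.2, 305.9 and 151.1 against 294.2, 236, 246.7 and 265.1 (-0.14 ± 0.26, limma adjusted p = 0.953), and its sign turned to 0.13 without 18 h replicate 3. Of 17 glucocorticoid-induced genes 0 were past the threshold, and the median was -0.24.

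The same split of the controls appeared in other enzymes of amino acid and glucose metabolism. Sds, serine dehydratase, read 371.6 and 423.9 in control replicates 1 and 4 and 2009 and 4543 in replicates 2 and 3, beside 202.7, 268.2 and 345.6 at 18 h (-1.94 ± 1.07, limma adjusted p = 0.61). Pck1, which makes phosphoenolpyruvate for glucose production, read 2553 and 5236 in control replicates 1 and 4 and 13869 and 13789.5 in replicates 2 and 3, beside 3191, 3319 and 2538 at 18 h. Asl, the urea-cycle argininosuccinate lyase, read 2884 and 2369 against 8186 and 6818 in the same pairs of controls, and 3002, 1626 and 1959.5 at 18 h. Igfbp1, an IGF-binding protein, ran from 433.2 to 9377 in the controls. None of these 4 passed.

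Lists of metabolic enzymes outside the respiratory chain had no gene past the threshold in either direction except Ces1e among 40 drug-metabolising enzymes. Amino acid breakdown had 0 of 35 and a median of 0.12. Within it Gpt, alanine aminotransferase, read 3708, 1551 and 3488 at 18 h against 653.5, 259.1, 602.1 and 546.2. The Gpt groups did not overlap, but the spread of Gpt over the course was wide (2.40 ± 0.80, limma adjusted p = 0.232). Arg1, liver arginase, differed by 0.97 with overlapping groups. Fatty acid oxidation had 0 of 26, with Bdh1, the ketone-body dehydrogenase, at 1547, 1766 and 1505.5 against 3161, 3755, 2357 and 4963 (-1.08 ± 0.36, limma adjusted p = 0.226) and Pdk4, the kinase that shuts off pyruvate dehydrogenase, at -1.59. Fatty acid synthesis, cholesterol synthesis, bile acid and glucose lists had 0 of 11, 0 of 15, 0 of 16 and 0 of 17. Gpx2, a glutathione peroxidase, was the largest difference among 37 oxidant-response genes, 1.42 (limma adjusted p = 0.18), and none of the 37 passed.

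Egr1, an immediate-early transcription factor, read 447.1, 484.4 and 531.3 at 18 h against 2464, 4869, 2172 and 1686, a difference of -2.33 ± 0.80 that did not pass (limma adjusted p = 0.255). None of the 25 immediate-early genes passed, and their median was -0.27. Inflammatory mediators had 0 of 28 past the threshold and a median of 0.01. Among them Il1b read 641.8, 905.6 and 811.5 against 196.8, 510.5, 448.6 and 229.4, and the receptor antagonist Il1rn 325.6, 217.1 and 332.9 against 44.2, 187.6, 85.9 and 47.1. Both sets of arrays were apart, with adjusted limma p of 0.495 and 0.517.

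Interferon-response genes were high on a single array. Rsad2, viperin, read 5804.5 on 18 h replicate 2 and between 209.4 and 357.1 on the other 6 arrays. Mx2, an interferon-induced GTPase, read 3796 on that array and between 93.7 and 439.6 on the others. Neither passed, and the interferon and class I list had 0 of 18 genes past the threshold. MHC class II genes had 0 of 9 and a median of -0.43. RT1-Bb and RT1-DMb had differences of -0.46 and -0.52, with overlapping groups.

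No gene of the 8 cell-type marker lists passed. Ptprc, the pan-leukocyte phosphatase CD45, came nearest, at 309.6, 205.8 and 261 against 401.1, 466.4, 308.5 and 445.3 (-0.59 ± 0.15, limma adjusted p = 0.0673). The summed signal of 11 lymphocyte and natural killer cell markers ran from 2911 to 3684 at 18 h and from 3210.4 to 4312 in the controls. Sums of 7 macrophage markers were 10308 to 11358 against 8727 to 14384, of 9 endothelial markers 3462 to 4104 against 3209 to 5022, and of 15 stellate and fibroblast markers 18180.1 to 20342 against 17606 to 22189. Each of these sums overlapped between the groups. The sum of 8 bile duct markers did not, at 1871 to 2010.2 at 18 h and 2034 to 2382 in the controls. The median difference of that list was -0.08, turning to 0.02 and 0.03 with median centring and quantile normalization. Of the 8, Krt19, Sctr and Aqp1 averaged higher at 18 h and the rest lower. In whole liver, fewer cells of a type and less RNA per cell cannot be told apart, and the part of cell mixture in the values of Serpinh1 and Lgals1 was not tested.

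**Figure D4:**
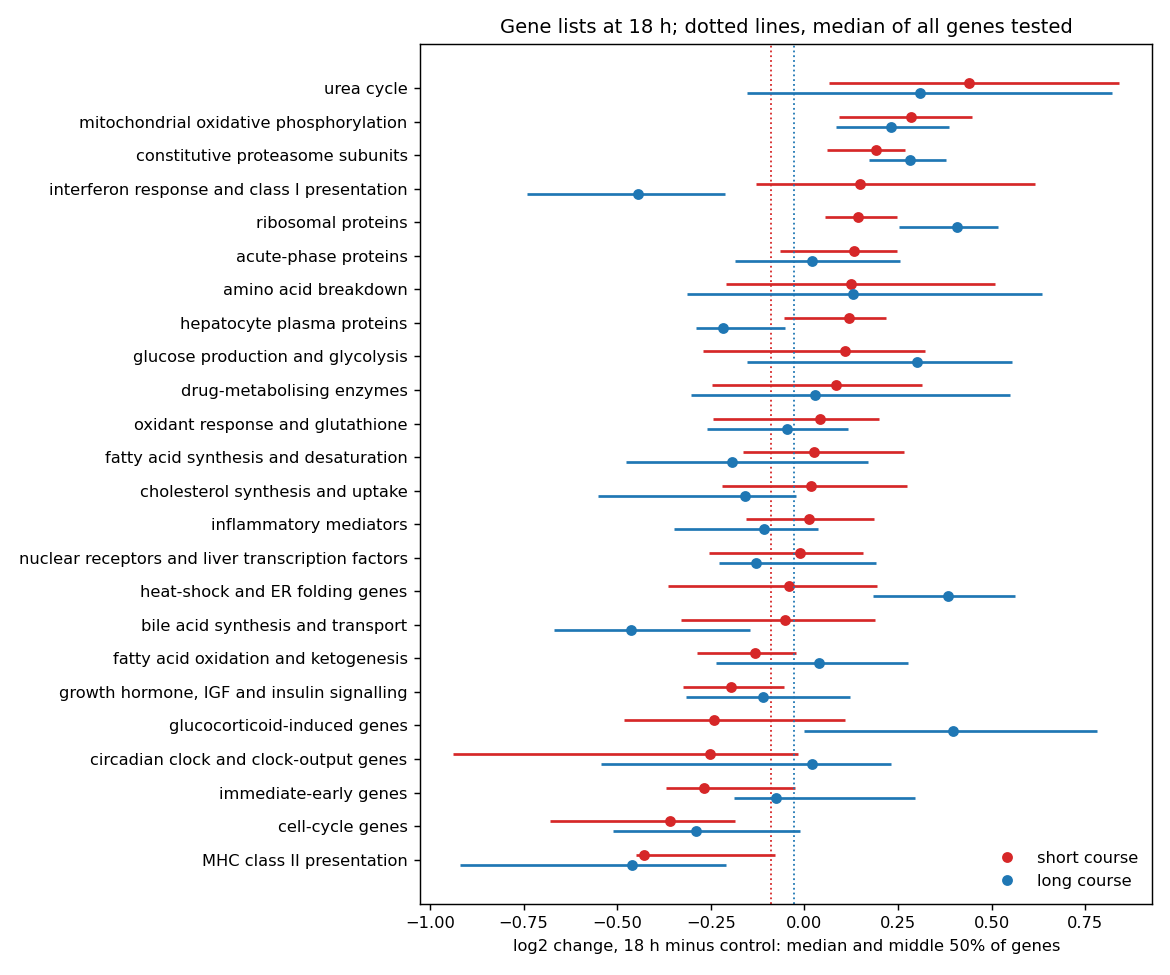
Log2 change at 18 h against control of the 24 pathway lists, as the median (point) and the middle 50% of genes (bar), in the short course (red) and the long course (blue); dotted lines mark the medians of all genes, -0.09 and -0.03. Oxidative phosphorylation lies at 0.28 and 0.23, and the glucocorticoid-induced list at -0.24 and 0.40.

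Several genes passed only on a probe set other than their brightest. The 23 probe sets named 12 genes through 16 probe sets, 8 of the genes by their brightest. The other 4 were Ephx2, Cyp3a23-3a1, Cavin3 and Mcm6, named here after their values were seen. Cyp3a23-3a1, a glucocorticoid- and pregnane-inducible drug-metabolising P450, has 4 tested probe sets. L24207_i_at read 6101, 7449.9 and 2964 at 18 h against 2180.5, 1650.5, 1235 and 1839 (1.58 ± 0.32, limma adjusted p = 0.0116). L24207_r_at and D13912_s_at differed by 1.68 and 1.09 without passing, and the brightest, X64401cds_s_at, by 0.23. P450 genes of this family are close copies, so their probe sets may read more than 1 gene.

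Ephx2, the soluble epoxide hydrolase, passed on X60328_at, with 639.7, 432.4 and 221.9 against 153.6, 80.3, 76.6 and 31.7 (1.97 ± 0.40, limma adjusted p = 0.0117). Its brightest probe set read 1929, 916.8 and 1089 against 1380.1, 1085, 833.9 and 788.7, a difference of 0.31 with overlapping groups. Both probe sets of Cavin3, a coat protein of caveolae, had low 18 h arrays. The dimmer read 138.2, 244.5 and 189.4 against 816.1, 949.2, 521.1 and 954.1 (-1.91 ± 0.39, limma adjusted p = 0.0117) and the brighter differed by -1.61 (limma adjusted p = 0.101). Mcm6, a partner of Mcm5 in the replication helicase, differed by -0.99 (limma adjusted p = 0.0246) on its dimmer probe set and -0.96 (limma adjusted p = 0.18) on its brighter one.

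The remaining 7 of the 23 have no single gene symbol, 4 with several and 3 with none. The largest difference of all 23 was in 1 of these, AB010635_s_at, at 4.13 ± 0.92 (limma adjusted p = 0.0256). It read 11480.4, 7826 and 15643 at 18 h and 504.2, 662.2, 616.3 and 676.3 in the controls, so every 18 h array was above every control.

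The 8 h arrays show what had changed by 18 h. Between 8 h and 18 h, 1035 of 6118 probe sets passed (16.9%), 278 higher at 18 h (4.54%) and 757 lower (12.4%). The split depended on the scaling, since the median probe set was 0.23 lower at 18 h: with each array centred on its median, 564 were higher and 272 lower, and with quantile normalization 308 and 328. It also rested on 8 h replicate 3, without which 294 passed, 63 higher and 231 lower, and to a lesser degree on 18 h replicates 2 and 3, without which 469 and 627 passed. By brightest probe set 623 of 3579 genes passed (17.4%), 150 higher (4.19%) and 473 lower (13.2%). The naming rule picks 104 of these genes, and 68 of the 104 lost their call without 8 h replicate 3, 57 without 18 h replicate 2 and 57 when only the arrays of both groups were fitted. Of the genes named next, Tat, Klf9, Nr1d2, Fabp4, Slc3a2, Sod2, Ccng1, Pcna, Slco1a4, Nr1h4 and Atp5po kept their call in every alternative run. Without 8 h replicate 3 it was lost by Nfkbia, Cdkn1a, Nr1d1, Tgm1, Klf6, Il1r1, Cd14, S100a9, Mmp9, Clec4f, Kynu, Slc10a1, C5h1orf210, Tkfc, Mbl2 and Hpx.

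Some glucocorticoid-induced genes were lower at 18 h than at 8 h. Of the 17, 5 were lower, 1 was higher and 11 did not pass, beside 13.2% lower and 4.19% higher among all genes. The list's median was -1.26, beside -0.24 for all genes. With median centring 3 were lower and with quantile normalization 4, where 272 and 328 of all 6118 probe sets were lower. The medians were then -0.99 and -1.16. Tat read 9857, 7867 and 10149 at 8 h and was 2.55-fold lower at 18 h (-1.35 ± 0.34, limma adjusted p = 0.00793). Klf9, a receptor-driven transcription factor, read 2014, 2401 and 4115 at 8 h and 1003, 898.1 and 593.5 at 18 h (-1.70 ± 0.38, limma adjusted p = 0.00347). Nfkbia, the inhibitor that holds NF-kappa-B in the cytoplasm, fell by 1.51. Cdkn1a, the p21 brake of the cell cycle, fell by 1.74. Nr1d2 was 4.19-fold lower than at 8 h (-2.07 ± 0.37, limma adjusted p = 0.000661), and Nr1d1 and Hlf, a relative of Dbp, were lower by -1.18 and -0.93 on the log2 scale. Of the 10 clock genes 4 were lower, beside 13.2% of all genes, and 1 under either other scaling.

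The largest falls from 8 h were in Tgm1, Fabp4, Zfp354a, Klf6, Slc3a2 and Sod2. Fabp4, a fatty-acid carrier known from adipocytes and macrophages, read 379.4, 345.3 and 748.1 at 8 h and 33.2, 6.2 and 38.3 at 18 h (-3.14 ± 0.67, limma adjusted p = 0.00256). Its controls averaged 13.1 ± 7.62 (SD, n = 4), so that at 18 h it was again near that level. Tgm1, a transglutaminase, read 302.2, 497.5 and 2680.4 at 8 h and 11.1, 11.8 and 18.9 at 18 h (-4.10 ± 1.41, limma adjusted p = 0.0427), a call kept in 7 of 17 alternatives with adjusted p up to 0.218. Slc3a2, the heavy chain of amino acid transporters, and Sod2, the mitochondrial superoxide dismutase, fell by 2.45 and 2.37. Cell-cycle genes had 11 of 23 lower and 0 higher, beside 13.2% and 4.19% of all genes. Among the 11 were Ccng1 at -2.33 and Pcna, the replication clamp, at -1.44. With median centring and quantile normalization 6 were lower each time, where 272 and 328 of all 6118 probe sets were lower. Inflammatory mediators had 6 of 28 lower, beside 13.2% of all genes, and 4 under each other scaling. Whether these counts are particular to the mediators was not tested, and they are not read so. The 6 lower mediators included Il1r1 and Cd14, the endotoxin co-receptor, at -2.06 and -1.94. Of 5 neutrophil markers 2 were lower, S100a9 by -2.17 and Mmp9 by -1.69, calls that median centring and quantile normalization ended, and 1 had a positive difference. Their summed signal, most of it Lcn2, went the other way, with 14378 to 24589 at 18 h and 12073 to 16261 at 8 h, and overlapped. Sums of marker signals were lower at 18 h than at 8 h with no overlap for macrophages (10308 to 11358 against 13298 to 24951), endothelium (3462 to 4104 against 5436 to 8328), lymphocytes and natural killer cells (2911 to 3684 against 4063 to 4693) and stellate cells (18180.1 to 20342 against 20734 to 24616). The bile duct sum was lower in the same way (1871 to 2010.2 against 2093 to 2525), and the red blood cell and platelet sum overlapped. Of the 7 macrophage markers 1 was lower, Cd14, and 1 higher, the Kupffer cell lectin Clec4f, by 1.49 (limma adjusted p = 0.0316). The median difference of the stellate list was -0.18, turning to 0.09 and 0.08 with median centring and quantile normalization, and that of the lymphocyte list was -0.31, moving to -0.03 and -0.02. Under the same scalings the bile duct list moved from -0.31 to -0.03 and -0.02. The macrophage list moved from -0.66 to -0.385 and -0.40, and the endothelial list from -0.56 to -0.29 under both. The part of these cell types in the falls was not tested.

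Several hepatocyte enzymes and transporters were higher at 18 h than at 8 h. The summed hepatocyte markers ran from 136008 to 215313 at 18 h and from 115995 to 133757 at 8 h, with no overlap. Of these 14 markers 1 was higher and 1 lower, and their median difference of 0.42 became 0.70 with median centring and 0.03 with quantile normalization. Their part in these rises was not tested. Amino acid breakdown had 10 of 35 higher and 3 lower, beside 4.19% and 13.2% of all genes. With median centring and quantile normalization 12 and 5 were higher, where 564 and 308 of all 6118 probe sets were higher. Hal, histidase, read 905.3, 254.6 and 93.6 at 8 h and 2034, 1621 and 2664 at 18 h (2.70 ± 0.56, limma adjusted p = 0.00212), and Kynu, of tryptophan breakdown, differed by 2.48. Slco1a4 and Slc10a1, bile acid uptake carriers, differed by 2.05 and 2.13, and Nr1h4, the bile acid receptor FXR, by 1.73. In Hal, Kynu and Slc10a1 the lowest array was 8 h replicate 3. Oxidative phosphorylation had 17 of 51 higher and 1 lower, beside 4.19% and 13.2% of all genes. It had 26 and 10 higher under the other scalings. Atp5po, a stalk subunit of ATP synthase, read 4845, 4559 and 3908 at 8 h and 8989, 10038 and 9762 at 18 h (1.11 ± 0.20, limma adjusted p = 0.000661). C5h1orf210 and Tkfc, a fructose-pathway kinase, differed by 2.94 and 2.85. Mbl2, a complement-activating lectin, was 5.66-fold higher. Hpx, haemopexin, had the largest difference, 6.07, from signals of 0.2, 119.9 and 0.1 at 8 h to 229.4, 6486 and 27718 at 18 h. These extremes within 1 group were not tested further.

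The long course gave a reading on arrays that share none of these samples. At 18 h, 554 of its 11106 probe sets passed (4.99%), 280 higher (2.52%) and 274 lower (2.47%), and 431 of 8069 genes (5.34%). The count was 52 when only the 8 arrays of both groups were fitted, and it ran from 238, without 18 h replicate 2, to 881, without control replicate 2. It was 299 without 18 h replicate 1 and 335 and 317 without control replicates 1 and 3. All 8 genes past the threshold in the short course had the same direction there, and 3 passed, A2m, Hspe1 and Cyc1. Of the 24 genes named above, 22 had the same direction and 7 passed. Over the 2889 genes read in both courses 54.9% had the same sign. Among the 214 of them that passed in the long course, 154 (72%) did. The 3 genes that passed in both are 37.5% of the 8 of the short course and 1.4% of the 214.

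A2m read 7437, 8932.5, 6755 and 11049.9 at 18 h of the long course. Its controls read 210.6, 217, 224.7 and 311.1. The difference was 4.96 ± 0.56, or 31.2-fold (limma adjusted p = 3.4e-07). Hspe1 read 4195, 4435, 3207 and 3383 against 1898, 1945, 2472 and 1441 (0.97 ± 0.18, limma adjusted p = 0.000903), and its partner Hspd1 rose by 0.78. Cyc1 read 1490.3, 1464, 1285 and 1333 against 922.2, 854.7, 967 and 879.2 (0.60 ± 0.13, limma adjusted p = 0.00441). Cidea, Ndufab1 and Uqcr11, which had not passed in the short course, rose by 1.52, 0.82 and 0.48. LOC102546572 fell by 0.62.

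**Figure D5:**
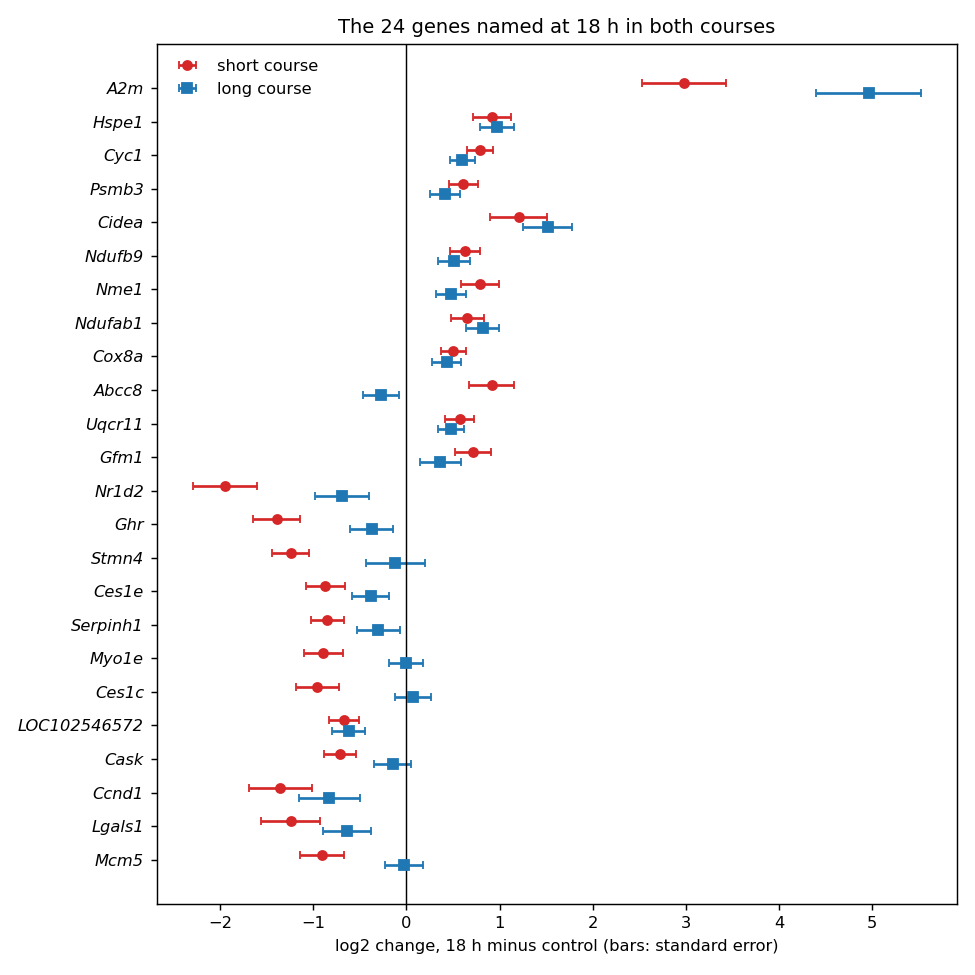
Log2 change at 18 h against control of the 24 named genes, with bars of 1 standard error, in the short course (red circles) and the long course (blue squares). Points lie on the same side of 0 in 22 of 24 genes; A2m is at 2.98 and 4.96, and Abcc8 at 0.91 and -0.27.

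The genes lowest in the short course were closer to 0 in the long one. Nr1d2 differed by -0.69 ± 0.29 (limma adjusted p = 0.175), Nr1d1 by -0.74 (limma adjusted p = 0.0518), Dbp by -0.97 (limma adjusted p = 0.064) and Ghr by -0.37 (limma adjusted p = 0.421). Stmn4, Ces1e and Serpinh1 differed by -0.12, -0.38 and -0.30. None of these passed, and the difference between the courses was not tested. Usp2, a clock-controlled deubiquitinase, was the 1 clock gene of 13 past the threshold, beside 5.34% of all genes, and rose by 1.36. That count is not read as a result about the clock genes.

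Tat had the opposite sign to the short course. It read 2888, 2776, 817.9 and 2154 at 18 h against 1374, 435.5, 651.6 and 1087, with overlapping groups (1.23 ± 0.34, limma adjusted p = 0.0224). That call was lost without any 1 of 18 h replicates 1, 2 or 4 or of control replicates 2 or 3, with adjusted p up to 0.118. Of 23 glucocorticoid-induced genes 3 were higher and 0 lower, beside 2.68% and 2.66% of all genes. The 3 were Tat, Agt, the angiotensin precursor, by 1.71, and Tsc22d3, the glucocorticoid-induced leucine zipper, by 1.31. The list's median was 0.40, beside -0.24 in the short course.

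The lists that leaned one way in the short course were read again. Oxidative phosphorylation had 7 of 77 higher and 1 lower (2.68% and 2.66% of all genes), with a median of 0.23. Cell-cycle genes had 0 of 24 higher and 2 lower, Pcna and Stmn1, with a median of -0.29. Ribosomal proteins had 14 of 43 higher and 0 lower, and heat-shock and folding genes 6 of 35 higher. MHC class II had 3 of 9 lower, with Cd74, the invariant chain, at -1.17, and interferon and class I genes had 7 of 22 lower, among them Irf7 at -1.30. Macrophage markers fell beside them: 2 of 10 were lower, and their summed signal ran from 1603 to 2750.2 at 18 h and from 3441 to 4431 in the controls. Sums of lymphocyte and natural killer cell markers (471 to 564 against 591 to 731) and endothelial markers (1566 to 1780 against 1829 to 2031) were also lower without overlap. The sums of the other marker lists overlapped between the groups. The part of macrophage or other cell content in these values was not tested.

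The 6 largest rises at 18 h of the long course were in A2m, Rdh16, Edem1, Gpt, Zfp354a and Bhmt, and the 6 largest falls in Serpina7, RT1-S3, Hsd17b2, Fads1, Slfn4 and Ccl6. Gpt read 481.4, 960, 465.1 and 353.9 against 77.3, 80.8, 139.1 and 49.7 (2.29 ± 0.34, limma adjusted p = 4.84e-05), beside 2.40 in the short course, where it did not pass. Edem1, of ER-associated degradation, and Rdh16, a retinol dehydrogenase, rose by 2.29 and 2.82. Serpina7, the thyroxine-binding globulin, fell by 2.84 and Hsd17b2, which inactivates sex steroids, by 2.13.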

How the data were processed

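Signals came from 91 arrays of rat liver total RNA, 47 of the short course and 44 of the long course, and each array is 1 sample. The authors deposited 1 intensity per probe set and array on a linear scale. As the values show, each course was scaled to a shared trimmed mean, 801 in the short course and 150 in the long one. The sources used here do not name the software behind these intensities. Replicate 3 at 6 h of the short course had been deposited at another scale and was rescaled to the others. Columns were assigned to samples through their titles, and no column was left unused.

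Control probe sets were left out, 32 was added, log2 was taken, and probe sets under the 30th percentile of mean signal were dropped. This left 6118 of 8799 probe sets in the short course and 11106 of 15923 in the long one. Group means were fitted over all arrays of a course with limma 3.58.1 in R 4.3.3, with moderated variances and a trend on mean signal. Benjamini-Hochberg adjustment covered all probe sets tested, and the threshold was an adjusted p of 0.05. Of the short course's probe sets 7006 had 1 gene symbol, 308 had several and 1426 had none; 6985 matched the RefSeq gene table of GRCr8, through which symbols were updated. The fit was tested on simulated data.

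Named genes were the 12 higher and 12 lower past the threshold, filled with the lowest p among genes whose groups did not overlap, which are given as not past the threshold. In the other comparisons they were the 6 largest in each direction. Tat and Nr3c1 were always given. From each of 32 lists, 24 of pathways and 8 of cell markers, up to 4 genes past the threshold were named, or the 2 largest where none passed. The members and lists were chosen with earlier results of these data known, so their agreement with those results is not independent.

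Alternatives changed the scaling, the added constant, the filter, the arrays fitted, the weights and the replicate block, or left out 1 array. A block for the spike-in signal of the long course, whose arrays part at a log2 of 9, was chosen after seeing the data. So were the fit on arrays with low spike-in signal alone and, for 18 h against 8 h, leaving out the rescaled array. For 18 h against control, leaving out that array was planned. In the long course, deviations of arrays of the same replicate number in both groups had correlations of 0.11, 0.15, 0.20 and 0.35. The best match was the array of the same number in replicates 2, 3 and 4, but not in replicate 1. Both arrays of replicate 4 also had high spike-in signal, with log2 of 9.81 at 18 h and 9.71 in the control. Any such pairing comes from the values, not from the labels.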

Additional observations from a re-analysis of the deposited data

Results flagged for a closer look

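In the long course the highest of the 4 A2m controls, 311.1, stood apart from the other 3, by a test that chance meets in about 1 of 20 groups. Several genes named at 18 h also differed between 18 h and 8 h in the test of that difference. Psmb3 was higher at 18 h by 0.46 on the log2 scale, Ndufb9 by 0.54, Uqcr11 by 0.61, Gfm1 by 0.91 and Abcc8 by 1.82. Nr1d2 differed by -2.07, Stmn4 by -1.23, Serpinh1 by -0.76, Myo1e by -1.13, Cask by -0.58, Mcm5 by -0.82 and Tat by -1.35. These differences use the same 18 h arrays as the comparison with time 0. Between the courses, Abcc8 and Tat had opposite signs at 18 h, with -0.27 and 1.23 in the long course against 0.91 and -0.70 in the short one; the difference between the courses was not tested.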

How the results depend on the processing

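A2m, Cyc1, Nr1d2, Ghr and Stmn4 kept their call at 18 h against control in 17 of 18 alternatives. The exception was the fit on the arrays of both groups alone, with adjusted limma p of 0.0572, 0.284, 0.174, 0.112 and 0.174. Hspe1 kept it in 10, Serpinh1 in 11 and Ces1e in 8. Against the 23 probe sets called, that fit gave 8, 3 higher and 5 lower. Median centring gave 23 higher and 5 lower, quantile normalization 5 lower, an added constant of 16 gave 13 lower and a filter at the 50th percentile 15 lower. Without 1 array the count ran from 11 to 36, with 7 to 24 higher and 4 to 14 lower. Same-numbered arrays of the short course were not shown to be paired (correlations of 0.35, 0.02 and 0.24, and 1 of 3 best with its own number). With the replicate number as a replicate block 18 passed, 9 higher and 9 lower, and Hspe1, Ces1e and Serpinh1 did not pass (adjusted limma p of 0.102, 0.0866 and 0.109).

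For 18 h against 8 h, the 1035 calls became 564 higher and 272 lower with median centring, and 636 with 328 lower with quantile normalization. They became 307, 91 higher and 216 lower, with the arrays of both groups alone, 981 with the replicate block and 999 without the rescaled array. Without 1 array there were 294 to 1114, with 63 to 335 higher and 231 to 779 lower. In the long course the 554 calls became 52, 24 higher and 28 lower, with both groups alone, 669 with the replicate block and 724 with the spike-in block. Without 1 array there were 238 to 881, with 134 to 450 higher and 104 to 431 lower. The replicate block ended none of the calls of genes named in the long course.

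Some differences that had not passed changed sign. At 18 h against control Nr3c1 ran from -0.31 to 0.13 and Alb from -0.35 to 2.98 without 1 array; Alb is listed at 0.2 in control replicate 1. Against 8 h, Ces1c gave 0.017 with median centring, Cox8a -0.10 with quantile normalization, and LOC102546572 ran from -0.054 to 0.15 without 1 array. In the long course, with median centring and quantile normalization, Myo1e gave 0.040 and 0.051 and Mcm5 0.017 and 0.012. Mcm5 gave 0.0073 with array weights and 0.051 with low spike-in arrays alone, and Ces1c -0.015 with quantile normalization. Without 1 array Stmn4 there ran from -0.34 to 0.11, Myo1e from -0.0785 to 0.073, Ces1c from -0.026 to 0.14 and Mcm5 from -0.14 to 0.11. The cause was not tested. The number of arrays, 3 and 4 a group, limits the precision.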
